A study of Panax ginseng with 12 samples.

Results

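Genes for galactinol, raffinose and trehalose metabolism were followed in embryogenic calli of Panax ginseng, a medicinal plant with a tetraploid genome. They were all rows of the deposited TPM table whose Swiss-Prot description contains galactinol, raffinose, stachyose synthase or trehalose. The rule found 35 of 44953 assembled genes. They comprised 1 galactinol synthase gene, 5 genes of the raffinose synthase family, 14 of the trehalose-phosphate synthase family and 15 for trehalose-phosphate phosphatase. No stachyose synthase description was found among them.

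The calli were held at 5 °C (cold) or 20 °C (control), and total RNA was sequenced after 2, 4 or 6 days. There were 2 libraries for each of the 6 groups, so 12 in all and 6 per temperature. Embryogenic calli are clumps of undifferentiated cells in culture from which somatic embryos can arise. All groups were the same species and callus type, and the labels name no line, genotype or pooling. They also do not say that replicates are separate cultures, so p-values may measure technical spread alone.

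Galactinol synthase joins myo-inositol to galactose from UDP-galactose, and raffinose synthase passes that galactose on to sucrose. Raffinose and galactinol are known as protective sugars that build up in many plants in the cold. Trehalose-phosphate synthase makes trehalose 6-phosphate, a signal of sucrose supply that restrains the kinase SnRK1, and trehalose-phosphate phosphatase turns it into trehalose. In Arabidopsis, TPS1 is the main active synthase, while the class II proteins TPS5 to TPS11 carry synthase-like and phosphatase-like domains and are thought to act mainly as regulators. Gene names here are best Swiss-Prot hits, mostly to Arabidopsis proteins, and show resemblance rather than function in ginseng.

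Library totals lay between 873298 and 929555 TPM (a transcript level scaled for gene length and for the library's total), and read depth is unknown. On the first principal component (32.6% of the variance) the cold libraries lay at 15.4 to 136 and the controls at -111 to -52.1. The lowest of the cold values was that of cold day 6 replicate 3. On the second component cold day 2 replicate 3 had 138, while the other library of its group had 31.9. These are called the outlying cold libraries. The controls were spread on the second component too, at 71.1 and -51.5 on day 2, 31 and 2.43 on day 4, and 28.1 and -65.2 on day 6 (the higher value is replicate 1, replicate 1 and replicate 3). The control day 2 pair had the lowest correlation of any group (r = 0.81 over genes). Over all tested genes 11.3% were called higher in cold and 12% lower, the background for the marker counts that follow. Of 8 embryogenic callus marker rows 1 was called higher and 1 lower in cold. Their summed level was 224 to 319 TPM in control and 204 to 258 TPM in cold, and the most abundant, SERK1 (TRINITY_DN26952_c0_g1), was the one called lower, with means of 136.5 and 95.5 TPM. No row named LEC1, LEC2, FUS3, ABI3, AGL15 or BBM was found among those tested. Xylem markers had 1 of 10 called higher and 2 lower (summed 106 to 412 TPM in control and 121 to 318 TPM in cold). Epidermis and cuticle markers had 3 of 13 higher and 1 lower (241 to 536 TPM and 233 to 350 TPM), and neither of 2 seed storage and oil body rows was called (46.5 to 215 TPM and 47.8 to 101 TPM). The most abundant markers of these 3 lists were XCP2 (TRINITY_DN27664_c1_g1, means 104.7 and 93.7 TPM), CER1 (TRINITY_DN18898_c0_g1, 153 and 71.3 TPM, called lower) and CRD (TRINITY_DN26943_c0_g1, 69 and 53.8 TPM). A KCS3 row of 236 bases (TRINITY_DN17119_c2_g1) was listed at 0 in all cold libraries and ran from 0 to 6.37 TPM in control. The other KCS3 row (TRINITY_DN9321_c0_g2) ran from 0 to 6.87 TPM in cold and from 0 to 0.59 TPM in control. Both KCS3 rows were not called. The part of these markers in the sugar gene results was not tested.

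Over the 3 days, 12 of the 35 genes were higher in cold, 6 were lower and 17 were not called. Among the genes that rose were galactinol synthase, the raffinose synthase genes RFS and RFS5, and 5 class II trehalose-phosphate synthase genes. Among those that fell were RFS2, both TPS1 genes and both TPPG genes. The lowest maximum of any gene in the table is 6.01 TPM. Both TPS1 genes passed that level in control alone, and the phosphatase genes TPPB and TPP4 (TRINITY_DN34215_c2_g2), called higher, in cold alone. Such genes are in the table through the temperature where they were high, and the part of this floor in their calls was not tested. The test was limma on log2(TPM + 1) for the mean of the 3 daily differences, called at a false discovery rate of 0.05 over 44600 tested genes, and all 35 genes passed the low filter. Across all tested genes 23.3% were called, 11.3% higher and 12% lower. The median log2 difference of the 35 genes was 0.64, against -0.05 for all tested genes. In 2 of the 35 genes, both TPS10, the 6 cold values lay above all 6 control values, and in none did they lie below. Over all tested genes the values did not overlap in 7.11%, with 3.27% higher and 3.84% lower.

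No call passed a test against a 2-fold threshold, in which RFS2 came nearest (limma treat, Benjamini-Hochberg adjusted p = 0.074). With both outlying cold libraries left out, 9 of the 35 genes were higher and 7 lower. Without cold day 6 replicate 2, 10 were higher and 3 lower. In a tissue sample, fewer cells of a type and less RNA per cell cannot be told apart.

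**Figure D1:**
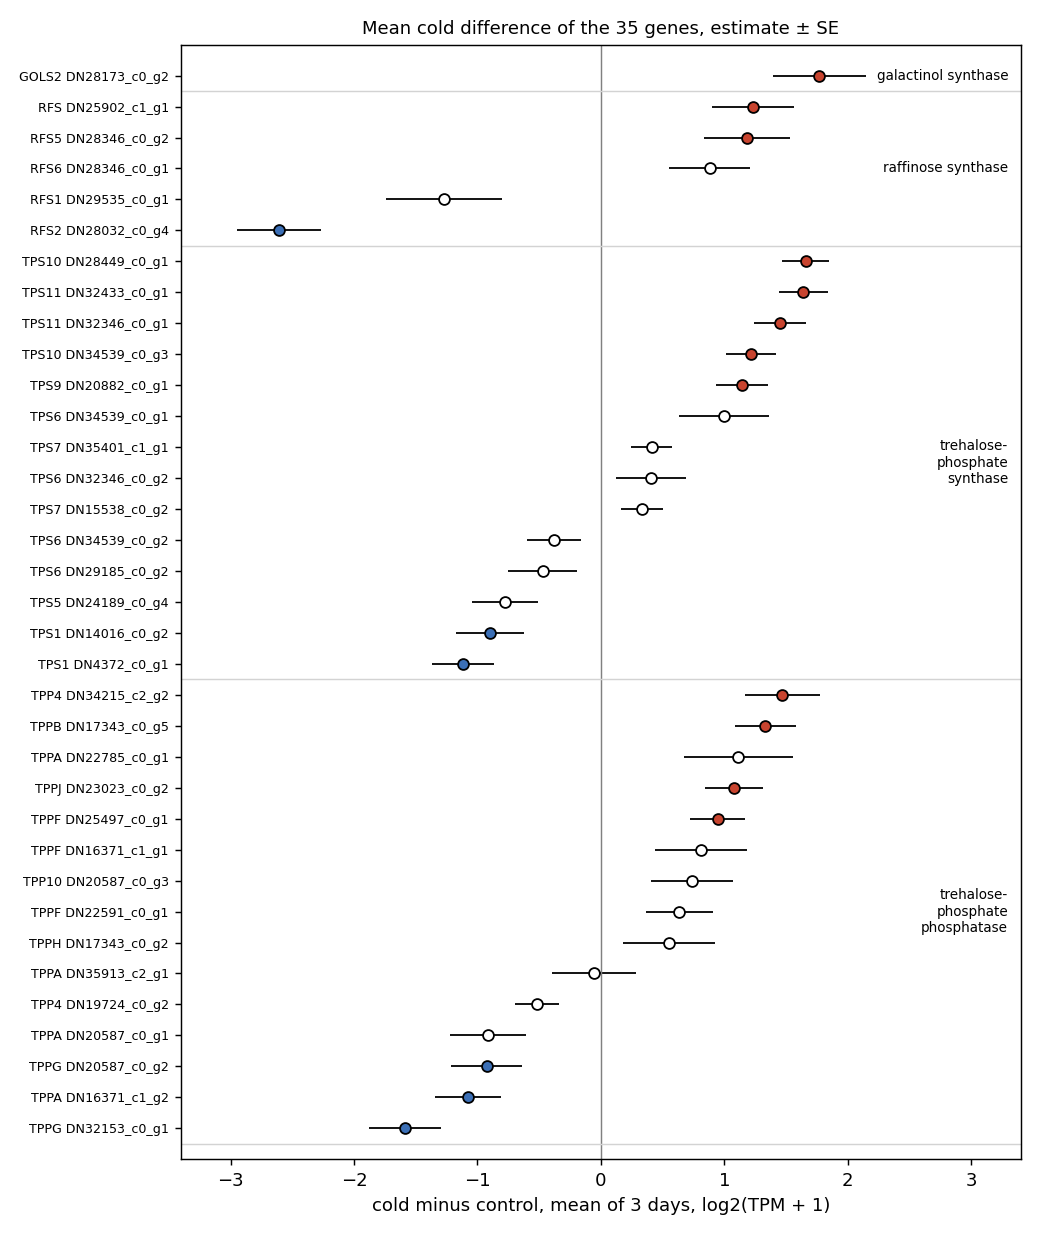
Mean of the 3 daily cold minus control differences on the log2(TPM + 1) scale (x axis) for each of the 35 genes (y axis), grouped by step, with bars for the SE from limma. Red points were called higher, blue points lower and white points not called at a false discovery rate of 0.05, and RFS2 lies lowest at -2.61.

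The galactinol synthase gene GOLS2 (TRINITY_DN28173_c0_g2, 972 bases, named for a tomato protein), the entry step to raffinose, rose in cold. In control it stood at 6.05 and 17.9 TPM on day 2, 8.27 and 12.7 TPM on day 4, and 7.33 and 4.69 TPM on day 6. In cold it stood at 148 and 34.6 TPM on day 2, 33.3 and 63.6 TPM on day 4, and 11.9 and 7.34 TPM on day 6. On each day both cold values lay above both control values, but the day 6 cold values lay within the range of all controls. The mean log2 difference was 1.77 (SE 0.37; adjusted p = 0.0085 by limma with Benjamini-Hochberg). By day the difference was 2.66 (SE 0.65) on day 2, 2.06 on day 4 and 0.59 on day 6, none of which was called by itself (adjusted p = 0.066, 0.071 and 0.68).

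The raffinose synthase family split. RFS (TRINITY_DN25902_c1_g1, 2902 bases), the row closest to the raffinose synthase of pea, had the highest mean level of the family over the 12 libraries. Its control libraries held 59 and 120 TPM on day 2, 57 and 165 TPM on day 4, and 125 and 50.2 TPM on day 6. Its cold libraries held 160 and 219 TPM on day 2, 441 and 272 TPM on day 4, and 164 and 108 TPM on day 6. The cold values were above the controls of their day on days 2 and 4 and overlapped them on day 6. The log2 difference was 1.23 (SE 0.33; adjusted p = 0.022 by limma with Benjamini-Hochberg).

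RFS5 (TRINITY_DN28346_c0_g2, 1057 bases), named for the raffinose synthase of Arabidopsis that is active under abiotic stress, rose by 1.18 on the log2 scale (SE 0.35; adjusted p = 0.032). It ran from 28.9 to 123 TPM in control (mean 62 ± 35.5, SD, n = 6) and from 56 to 254 TPM in cold (mean 141 ± 74.4). On each day the control that stood higher on the second component held less of both genes, with 59, 57 and 50.2 TPM of RFS against 120, 165 and 125 TPM in the other controls. For RFS5 these were 39.9, 33.9 and 28.9 TPM against 72.6, 123 and 73.7 TPM, and RFS1 was likewise lower in the first of each pair. The part of this split of the controls in the cold difference was not tested. RFS held 1.32 to 1.93 times the TPM of RFS5 in every library, a pair compared after their values were seen. Whether RFS and RFS5 are pieces or copies of the same locus was not tested. RFS5 also shares an assembly component with RFS6, which is given below and was not called. The RFS call was lost without control day 4 replicate 1, control day 6 replicate 3, cold day 2 replicate 3, cold day 4 replicate 1 or cold day 6 replicate 2, with an adjusted p of up to 0.072. The RFS5 call was lost in the same 5 cases and without control day 2 replicate 1 or cold day 4 replicate 2, with an adjusted p of up to 0.096. With both outlying cold libraries left out the adjusted p was 0.075 for RFS and 0.1 for RFS5.

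RFS2 (TRINITY_DN28032_c0_g4, 3768 bases) fell furthest of the 35 genes. Its Arabidopsis namesake, also known as SEED IMBIBITION 2, was characterised as an alkaline alpha-galactosidase that breaks raffinose down. In control RFS2 stood at 46 and 77.6 TPM on day 2, 26.8 and 80 TPM on day 4, and 57.7 and 58.8 TPM on day 6. In cold it stood at 8.49 and 2.98 TPM on day 2, 4.14 and 5.17 TPM on day 4, and 12.3 and 34 TPM on day 6. Both cold values were below both controls on each day, and cold day 6 replicate 3, at 34 TPM, was the single cold library above any control (control day 4 replicate 1). The log2 difference was -2.61 (SE 0.34; adjusted p = 0.0013 by limma with Benjamini-Hochberg). It was called on day 2 (-3.31, SE 0.59, adjusted p = 0.023) and on day 4 (-3.07, adjusted p = 0.016), and was -1.46 on day 6 (adjusted p = 0.24). It kept its call for the mean in each of the 12 fits without 1 library, with differences between -2.87 and -2.36.

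RFS1 (TRINITY_DN29535_c0_g1), named for another Arabidopsis seed imbibition protein, was not called (-1.27, SE 0.47; adjusted p = 0.07 by limma with Benjamini-Hochberg). Its level was 65.9 to 280 TPM in control and 9.11 to 150 TPM in cold, the lowest in cold day 2 replicate 3. RFS6 (TRINITY_DN28346_c0_g1), named for a gene that Arabidopsis induces in the dark, was not called either (0.88, SE 0.33; adjusted p = 0.072). It ran from 9.18 to 27.8 TPM in control and from 14.5 to 93.9 TPM in cold, with the highest value in cold day 4 replicate 1. Summed over the family, the level was 379 ± 171 TPM for the controls and 489 ± 205 TPM for cold (SD, n = 6), and the ranges of the libraries overlapped. RFS2 made up 57.8 ± 19.9 TPM of that sum in control and 11.2 ± 11.7 TPM in cold, while RFS made up 96.2 ± 47.5 and 227 ± 119 TPM.

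**Figure D2:**
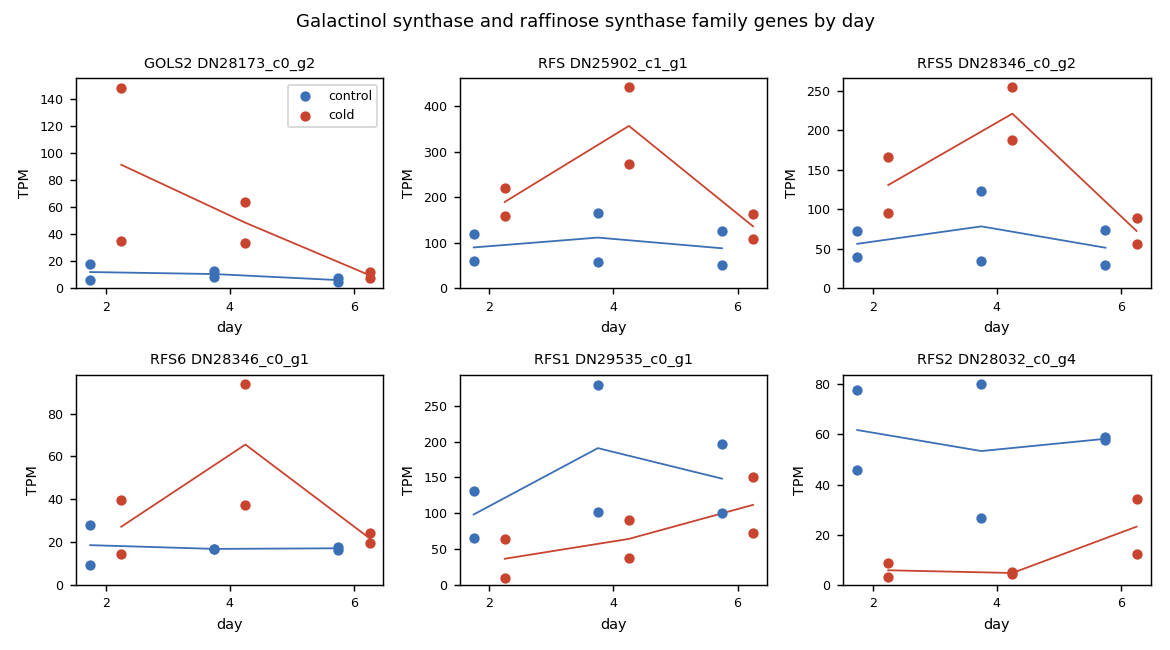
TPM (y axis, from 0) by day (x axis) for galactinol synthase and the 5 raffinose synthase family genes, with each point a library, blue for control, red for cold, and lines through the group means. GOLS2 and RFS were highest in cold on day 2 or 4, while RFS2 in cold stayed between 2.98 and 34 TPM.

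The level of trehalose-phosphate synthase was summed over its 14 rows, as a description without a test. A mean of 339 ± 68.1 TPM in control compared with 734 ± 260 TPM in cold (SD, n = 6), and the lowest cold library (411 TPM) lay below the highest control (426 TPM). By group mean the sum was 687 TPM on day 2, 1041 TPM on day 4 and 473 TPM on day 6 in cold, against 334, 337 and 346 TPM in control. Both TPS1 rows were called lower, and of 12 class II rows 5 were called higher, none lower and 7 were not called.

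TPS11 had 2 rows with like levels. The longer (TRINITY_DN32433_c0_g1, 2459 bases) stood in control at 48.5 and 31.4 TPM on day 2, 35.4 and 52.1 TPM on day 4, and 45.3 and 53.4 TPM on day 6. In cold it stood at 158 and 134 TPM on day 2, 242 and 279 TPM on day 4, and 90.7 and 52.8 TPM on day 6. All cold values of days 2 and 4 lay above every control, while cold day 6 replicate 3 lay among the controls. The log2 difference was 1.64 (SE 0.20; adjusted p = 0.001 by limma with Benjamini-Hochberg). By day it was 1.87 on day 2 (adjusted p = 0.025), 2.57 on day 4 (adjusted p = 0.0065) and 0.49 on day 6 (adjusted p = 0.49).

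The shorter TPS11 row (TRINITY_DN32346_c0_g1, 503 bases) had daily differences of 1.86, 2.53 and -0.04, with adjusted p of 0.031, 0.0074 and 0.98 (limma, Benjamini-Hochberg). Its group means in cold were 164 ± 19.7, 307 ± 63.7 and 55.7 ± 14.9 TPM on days 2, 4 and 6 (SD, n = 2). The F test for change over days within cold called it (adjusted p = 0.035), where 0.601% of all genes were called. With both outlying cold libraries left out, none of the 35 genes was called in that test. TPS9 (TRINITY_DN20882_c0_g1, 1672 bases) had a like course, at 54.5 ± 1.22, 97.7 ± 16 and 25.2 ± 3.99 TPM in cold on days 2, 4 and 6 (SD, n = 2). Its control means were 21.1, 22.1 and 27.5 TPM. TPS9 was called for the mean (1.14, SE 0.21; adjusted p = 0.005) and on day 4 (2.19, adjusted p = 0.012), with 1.37 on day 2 (adjusted p = 0.083) and -0.13 on day 6 (adjusted p = 0.89).

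Both TPS10 rows were higher in every cold library than in any control. The longer (TRINITY_DN28449_c0_g1, 2330 bases) ran from 15.7 to 24.3 TPM in control and from 48.2 to 88.3 TPM in cold. Its difference was nearly level over time, at 1.69 on day 2, 1.60 on day 4 and 1.69 on day 6. The mean was 1.66 (SE 0.19; adjusted p = 0.00081 by limma with Benjamini-Hochberg), with calls on day 2 (adjusted p = 0.031) and day 4 (adjusted p = 0.02) and an adjusted p of 0.053 on day 6. The other TPS10 row (TRINITY_DN34539_c0_g3, 1323 bases) went from 14.2 ± 3.27 to 34.1 ± 6.06 TPM (SD, n = 6). It was called for the mean (1.21, SE 0.20; adjusted p = 0.0031) and on day 4 (1.28, adjusted p = 0.047).

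TPS1, the active synthase in Arabidopsis, had low levels. Both of its rows passed 6.01 TPM, the lowest gene maximum of the table, in control libraries alone. They are thus in the table through their control values. A row of 3156 bases (TRINITY_DN14016_c0_g2) was at 4.89 ± 1.22 TPM for the controls and 2.32 ± 1.49 TPM for cold (SD, n = 6). Its day 2 values overlapped, at 6.84 and 4.07 TPM in control and 2.28 and 5.27 TPM in cold. It fell, with a mean difference on the log2 scale of -0.90 (SE 0.27; adjusted p = 0.037 by limma with Benjamini-Hochberg). That call was kept in 3 of 12 fits without 1 library, those without control day 2 replicate 3, cold day 2 replicate 3 or cold day 6 replicate 3, and the adjusted p reached 0.094 without cold day 6 replicate 2. A second TPS1 row of 284 bases (TRINITY_DN4372_c0_g1) fell from 7.1 ± 1.61 to 2.79 ± 1.06 TPM (SD, n = 6), a difference of -1.12 (SE 0.25; adjusted p = 0.011). On each day both of its cold values lay below both controls, and it kept its call in all 12 fits.

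The class II rows that were not called were 4 TPS6, 2 TPS7 and 1 TPS5. Among them TPS6 (TRINITY_DN34539_c0_g1) was the most abundant in cold, at 76.5 ± 22.5 TPM against 42.4 ± 25.5 TPM in control (SD, n = 6; log2 difference 0.998, SE 0.37; adjusted p = 0.069 by limma with Benjamini-Hochberg). The other TPS6 rows had differences of 0.41, -0.38 and -0.47. TPS7 had 0.41 and 0.33, and TPS5 had -0.78 (SE 0.27; adjusted p = 0.0585), with cold values of 2.69 to 4.89 TPM against 4.42 to 9.5 TPM in control.

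**Figure D3:**
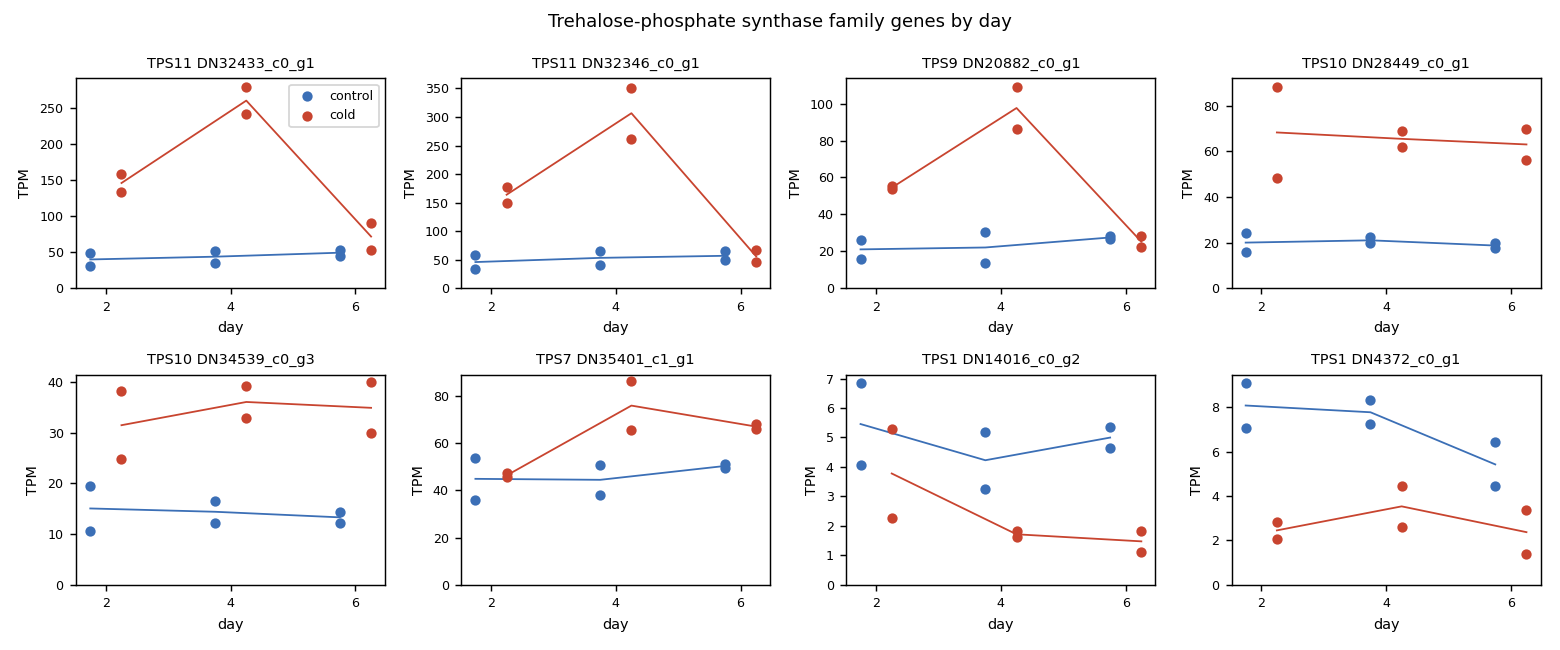
TPM (y axis, from 0) by day (x axis) for 8 trehalose-phosphate synthase family genes, with each point a library, blue for control, red for cold, and lines through the group means. Both TPS11 rows and TPS9 peaked on day 4 in cold, and TPS10 stayed above control on each day. Both TPS1 rows had lower means in cold on each day.

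The 15 trehalose-phosphate phosphatase genes moved both ways, with 4 called higher, 3 called lower and 8 not called. Their summed level was 225 ± 27.3 TPM for the controls and 263 ± 39.2 TPM for cold (SD, n = 6), with overlapping ranges. The Arabidopsis phosphatases, TPPA to TPPJ, are taken to be active enzymes.

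TPPJ, TPPB and one TPP4 row were high on day 2 of cold. TPPJ (TRINITY_DN23023_c0_g2) stood at 53.9 and 56.5 TPM in cold on day 2, at 11.8 and 8.97 TPM on day 4, and at 5.92 and 8.14 TPM on day 6. Its controls were at 13 and 5.64, 12.4 and 10.8, and 2.41 and 4.78 TPM on these days. The day 2 cold libraries exceeded all others, and the day 4 values overlapped. The difference was 2.54 on day 2 (SE 0.41; adjusted p = 0.015 by limma with Benjamini-Hochberg), -0.15 on day 4 (adjusted p = 0.84) and 0.84 on day 6 (adjusted p = 0.31). TPPJ was called for the mean (1.08, SE 0.23; adjusted p = 0.0095; 0.052 with both outlying cold libraries left out) and for change over days within cold (adjusted p = 0.029), the latter also lost with those libraries left out.

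TPPB (TRINITY_DN17343_c0_g5) stood at 28.3 and 16.8 TPM in cold on day 2 and at 3.06 to 6.48 TPM in the later cold libraries, against 0.71 to 4.35 TPM in control. It was called for the mean (1.33, SE 0.25; adjusted p = 0.0049 by limma with Benjamini-Hochberg) and on day 2 (2.67, adjusted p = 0.015). The F test over days within cold gave an adjusted p of 0.05026, just above the threshold. TPP4 (TRINITY_DN34215_c2_g2), named for a rice phosphatase, stood at 16 and 15.7 TPM in cold on day 2 and at 3.5 to 9.59 TPM later, against 1.18 to 4.65 TPM in control. Its difference was 1.47 (SE 0.31; adjusted p = 0.0079) for the mean and 2.44 on day 2 (adjusted p = 0.044). TPPB and this TPP4 row passed 6.01 TPM, the lowest gene maximum of the table, in cold libraries alone. They are thus in the table through their cold values. The sum over both TPP4 rows stood at -0.14 (adjusted p = 0.6), since the other row (TRINITY_DN19724_c0_g2) was more abundant and stood at -0.52 (adjusted p = 0.057).

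TPPF (TRINITY_DN25497_c0_g1, 2307 bases), the most abundant of the phosphatase rows, had a later course. In cold it stood at 27.8 and 20.5 TPM on day 2, 67.3 and 71.8 TPM on day 4, and 56.8 and 43.3 TPM on day 6, against 14 to 34.5 TPM over the controls. On day 2 the cold values lay within the controls, and on days 4 and 6 they lay above them. The mean difference was 0.95 (SE 0.23; adjusted p = 0.014 by limma with Benjamini-Hochberg), and the daily ones were 0.11, 1.38 and 1.35 (adjusted p = 0.91, 0.052 and 0.12). The other TPPF rows, at 0.64 and 0.81, were not called.

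Both TPPG rows and one of 4 TPPA rows were lower. A second annotation of the rows did not separate these names. It gave the longer TPPG row the same carrot protein as that TPPA row, and named the shorter TPPG row phosphatase A-like. TPPG (TRINITY_DN32153_c0_g1, 1020 bases) stood at 25.7 to 47.9 TPM in control. In cold it stood at 7.93 and 27.5 TPM on day 2, 7.99 and 10.3 TPM on day 4, and 8.62 and 10.2 TPM on day 6, so that cold day 2 replicate 3 alone reached the controls. The difference was -1.59 (SE 0.29; adjusted p = 0.0047 by limma with Benjamini-Hochberg), and -1.24, -1.74 and -1.78 on days 2, 4 and 6, none called by itself. The second TPPG row (TRINITY_DN20587_c0_g2, 413 bases) went from 14.6 ± 3.53 to 7.92 ± 4.68 TPM (SD, n = 6; -0.93, SE 0.29; adjusted p = 0.038). It kept its call in 4 of 12 fits, those without control day 2 replicate 3, control day 4 replicate 2, cold day 2 replicate 3 or cold day 6 replicate 3, and the adjusted p reached 0.11 without cold day 6 replicate 2.

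TPPA (TRINITY_DN16371_c1_g2, 380 bases) went from 8.56 ± 2.08 to 3.96 ± 2.4 TPM (SD, n = 6). The difference was -1.08 (SE 0.27, adjusted p = 0.017 by limma with Benjamini-Hochberg), and the call was lost without cold day 6 replicate 2. This row shares an assembly component with a TPPF row of 1326 bases (TRINITY_DN16371_c1_g1) that stood at 0.81 and was not called. How reads were divided between them is unknown. Of the other TPPA rows, TRINITY_DN20587_c0_g1 was at 24.7 to 33 TPM in control and at 8.15 to 16.9 TPM in 5 cold libraries, with 39.9 TPM in cold day 2 replicate 3. It was not called (-0.91, SE 0.31; adjusted p = 0.051). The other 2 had differences of -0.06 and 1.11 and were not called, and summed over its 4 rows TPPA stood at -0.24 (SE 0.23; adjusted p = 0.47).

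**Figure D4:**
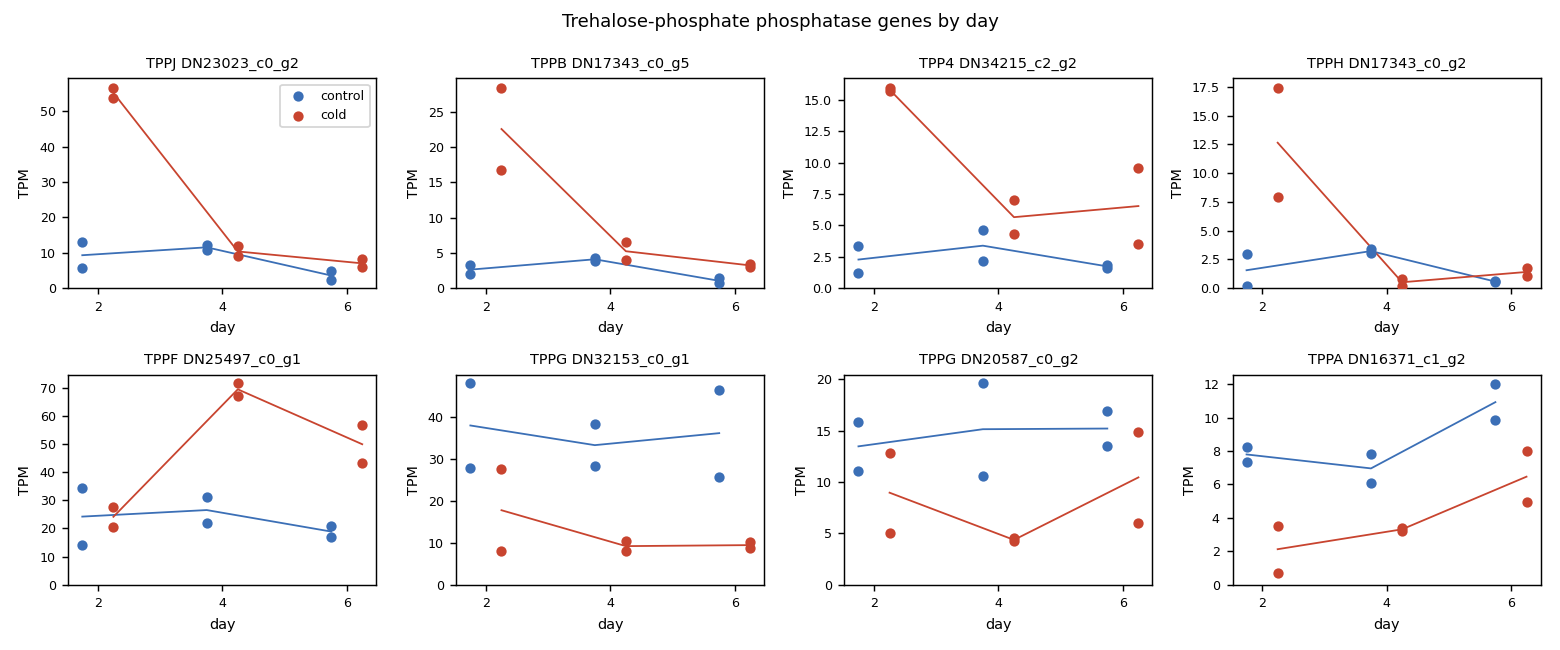
TPM (y axis, from 0) by day (x axis) for 8 trehalose-phosphate phosphatase genes, with each point a library, blue for control, red for cold, and lines through the group means. TPPJ, TPPB, TPP4 and TPPH were highest in cold on day 2, TPPF on day 4, and both TPPG rows and TPPA had lower means in cold on each day.

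Taken by day, 7 of the 35 genes were called on day 2, 6 on day 4 and none on day 6. On day 2, the longer TPS10 row, both TPS11 rows, TPPJ, TPPB and TPP4 were higher and RFS2 was lower, where 1.76% of all genes were called (1.48% higher, 0.287% lower). On day 4, both TPS10 rows, both TPS11 rows and TPS9 were higher and RFS2 was lower, where 8.38% of all genes were called (4.07% higher, 4.3% lower). On day 6, 0.484% of all genes were called (0.318% higher, 0.166% lower), and 9 of the 35 genes had an unadjusted limma p under 0.05. The median log2 difference of the 35 genes was 0.47, 0.63 and 0.38 on days 2, 4 and 6, against 0.00345, -0.16 and -0.03 for all tested genes. Median ratio scaling raised the day 4 median of all genes by 0.12 and quantile normalization by 0.11. Under the first 6 of the 35 genes were called higher and 1 lower on day 4, and under the second 5 and 1. Both cold values lay above both controls in 12, 16 and 12 of the 35 genes on days 2, 4 and 6, and below both in 7, 13 and 7. Such a gap, in either direction, was present in 44.7%, 61.9% and 48.3% of all tested genes on these days.

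The daily counts rested on single libraries, since each group had 2. On day 2 the count of 7 became 0 without control day 2 replicate 3 or cold day 2 replicate 1. It became 3 without cold day 2 replicate 3 or cold day 4 replicate 2. It was 4 in the fit that left out cold day 4 replicate 1. On day 4 the count of 6 became 0 without control day 4 replicate 1 or either cold day 4 library, and 3 without control day 4 replicate 2. Where a group was left with 1 library, that library was assumed to vary like the other groups. On day 6 the count of 0 became 1 without either control day 2 library. With both outlying cold libraries left out, 0 genes were called on day 2 and 8 on day 4.

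Whether the cold difference itself changed between days was tested for each gene, and none of the 35 was called (0.0157% of all genes were). Of the 35, 6 had an unadjusted limma p under 0.05 in that F test, and the lowest adjusted p was 0.25, for the shorter TPS11 row. The day 2 peak of TPPJ and the day 4 peak of TPS11 are therefore given as levels, and a difference in the response between days was not called. Within control, none of the 35 genes or of all tested genes was called for change over days (limma F test), and 2 of the 35 had an unadjusted p under 0.05. Within cold, 2 genes were called, TPPJ and the shorter TPS11 row. The count was also 2 without control day 6 replicate 2, 3 without control day 2 replicate 1, 4 without control day 2 replicate 3, 1 without control day 6 replicate 3 and 0 without any other single library.

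**Figure D5:**
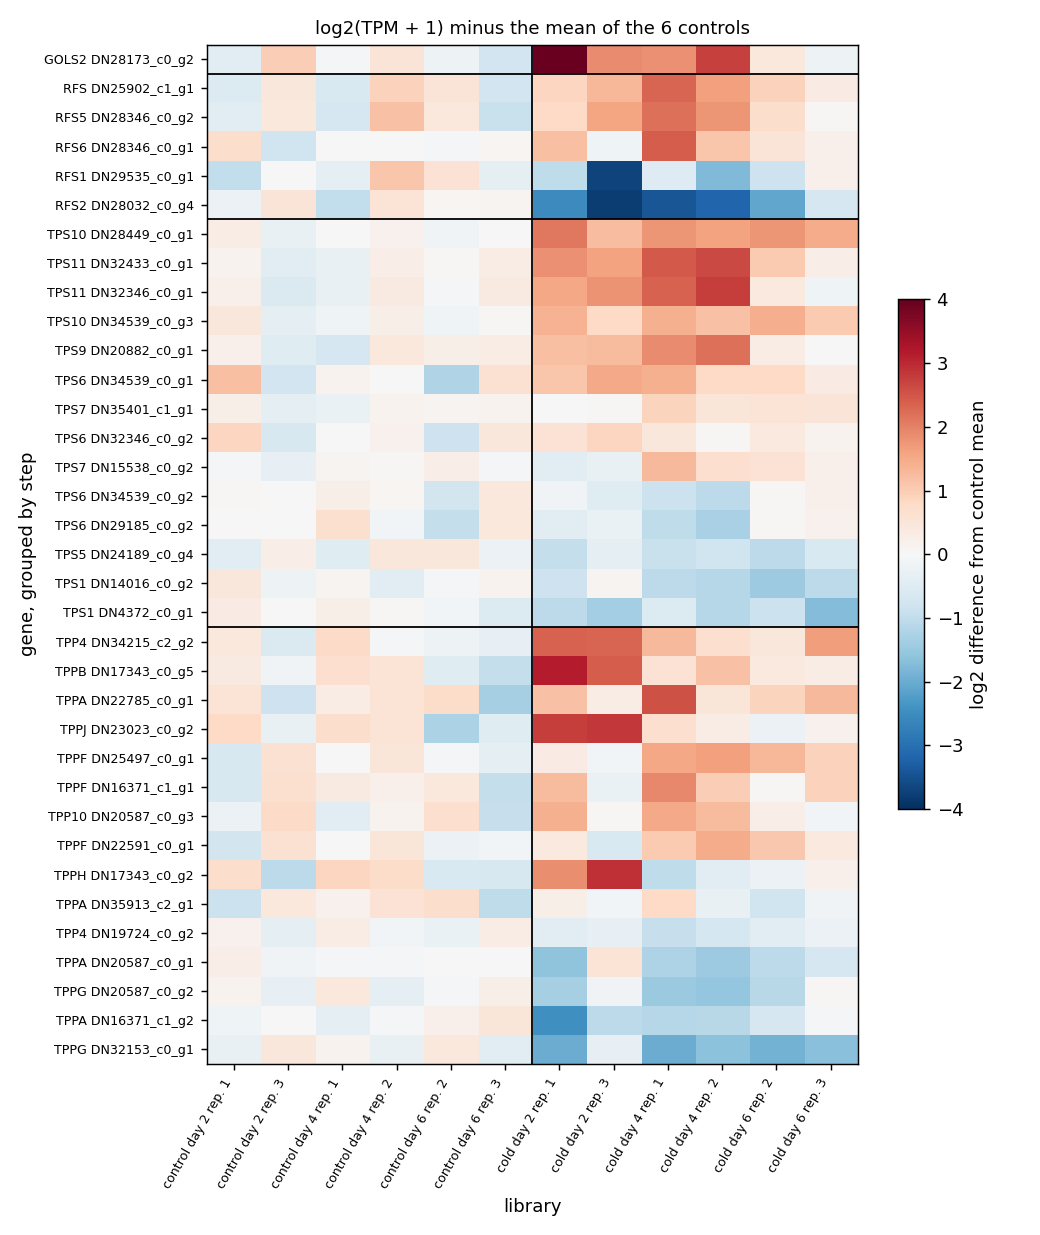
Difference of log2(TPM + 1) from the mean of the 6 controls (colour) for the 35 genes (rows, grouped by step) in the 12 libraries (columns). GOLS2, both TPS11 rows and RFS2 differed more from control in the cold libraries of days 2 and 4 than in those of day 6. Cold day 6 replicate 3, at 7.34 TPM for GOLS2 and 52.8 TPM for the longer TPS11 row, lies within the controls for those 2 rows.

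Several of the 35 genes may be pieces or copies of the same locus. They had 21 distinct Swiss-Prot hits and fell into 27 assembly components, of which 6 held more than 1 of the genes, and 8 genes were shorter than 600 bases. Trinity places transcripts that share sequence in one component, and how reads were divided between them is unknown. In the component TRINITY_DN20587_c0, TPPA and TPPG stood at -0.91 and -0.93 and TPP10 at 0.74 (adjusted p = 0.13 by limma with Benjamini-Hochberg). The shorter TPS11 row (1.45) shared a component with a TPS6 row at 0.41. The TPS10 row of 1323 bases (1.21) shared one with TPS6 rows at 0.998 and -0.38, and RFS5 (1.18) with RFS6 at 0.88. These TPS6 and RFS6 rows were not called. Of the 14 synthase rows, 11 carried the synthase-like Pfam domain (Glyco_transf_20), 2 the phosphatase domain (Trehalose_PPase) and 1 none. The 2 TPS11 rows had a TPM ratio of 0.752 to 1.37 over the 12 libraries, the 2 TPS10 rows of 1.25 to 2.31 and the 2 TPS7 rows of 0.904 to 1.66, pairs chosen after their values were seen. Summed by hit and refitted, TPS10 stood at 1.52, TPS11 at 1.56, TPS1 at -1.11, TPPF at 0.85 and TPPG at -1.40, all called (adjusted p of 0.0011, 0.0011, 0.0057, 0.0285 and 0.0058; limma, Benjamini-Hochberg). The sums of TPS6 (0.61), TPS7 (0.38), TPPA (-0.24) and TPP4 (-0.14) were not called (adjusted p of 0.16, 0.092, 0.47 and 0.6 in the same fit).

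Around these steps, 74 neighbouring pathway genes were tested, with 19 called higher, 8 lower and 47 not called. The shares over all tested genes, 11.3% higher and 12% lower, are the background for these counts. The 8 of 74 called lower, and counts of 1 of 12 or 1 of 7 in a single list, lie near it. Of 2 rows for making myo-inositol, the acceptor of galactinol synthase, none was called. The more abundant, an inositol-3-phosphate synthase (TRINITY_DN32781_c0_g1), ran from 7.64 to 27.1 TPM in control and from 11.3 to 30 TPM in cold. UDP-glucose 4-epimerase, which supplies UDP-galactose, had 2 of 5 rows higher. The GEPI48 row TRINITY_DN24338_c1_g1 rose by 1.38 on the log2 scale (SE 0.23; adjusted p = 0.0031 by limma with Benjamini-Hochberg), with 33.4 and 26.6 TPM in cold on day 2, 123 and 91.6 TPM on day 4 and 91.9 and 49.3 TPM on day 6, against 12.9 to 28.8 TPM in control.

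Of 5 alpha-galactosidase genes, which release galactose from raffinose, none was higher and 2 were lower. The largest fall was in TRINITY_DN17385_c0_g4 (-1.47, SE 0.44; adjusted p = 0.033 by limma with Benjamini-Hochberg), at 4.5 to 50.5 TPM in control and 2.94 to 17.7 TPM in cold. AGAL1 (TRINITY_DN18891_c1_g1) was not called, at 13.8 to 37.1 TPM in control and 15.7 to 31.5 TPM in cold. Both trehalase rows were not called, and the more abundant (TRINITY_DN33287_c2_g1) stood at -0.44 (SE 0.24; adjusted p = 0.2).

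Of 12 sucrose synthesis genes, 1 fell and 11 were not called. It was SPS1 (TRINITY_DN31182_c0_g1), a sucrose-phosphate synthase, at -1.12 (SE 0.31; adjusted p = 0.026 by limma with Benjamini-Hochberg), with 29.2 to 58.8 TPM in control and 6.16 to 53.5 TPM in cold. Cold day 6 replicate 3 (53.5 TPM) and cold day 2 replicate 3 (42.6 TPM) were its highest cold libraries. The most abundant, the sucrose-phosphatase gene SPP1 (TRINITY_DN34640_c2_g1), stood at -0.25 (adjusted p = 0.41). Of 41 genes matched by the words for sucrose splitting, 16 were higher, 4 lower and 21 not called. The list includes 1 row for an invertase inhibitor, which was not called. The most abundant row of the list, a sucrose synthase (TRINITY_DN35469_c0_g1, 843 bases), rose from 95.2 ± 22.6 to 192 ± 53 TPM (SD, n = 6). The difference was 0.99 (SE 0.18, adjusted p = 0.0046 by limma with Benjamini-Hochberg). A longer row with the same hit (TRINITY_DN35469_c1_g1, 2279 bases) was not called, with means of 102 TPM (control) and 126 TPM (cold) and a difference of 0.37 (SE 0.28). Other rows with that hit were called higher, as TRINITY_DN12738_c0_g1 (0.72), or not called. The largest fall of the list was in a row of 208 bases for the cell wall invertase CWINV1 (TRINITY_DN35318_c0_g2), at 0.95 to 6.78 TPM in control (adjusted p = 0.018). It was listed at 0 in the 4 cold libraries of days 4 and 6, and passed 6.01 TPM, the lowest gene maximum of the table, in control alone. The CWINV1 row of 2122 bases in the same component (TRINITY_DN35318_c0_g1) was also called lower, at 17.2 to 37 TPM in control and 12.3 to 17.1 TPM in cold. A further CWINV1 row (TRINITY_DN26313_c1_g1) stood at 0.42 and was not called. The largest rise of the list was in a row of 643 bases for the vacuolar invertase INV*DC4 (TRINITY_DN23092_c0_g1), at 1.08 to 24.9 TPM in control and 19.1 to 123 TPM in cold. Other INV*DC4 rows were called higher, as TRINITY_DN32151_c0_g5 (2.72), or not called, as TRINITY_DN23092_c0_g2 of the same component (-0.24).

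SnRK1, the kinase complex that trehalose 6-phosphate restrains, had 1 of 7 rows higher and 1 lower. The beta subunit gene KINB1 (TRINITY_DN16828_c0_g4) rose by 1.30 on the log2 scale (SE 0.22; adjusted p = 0.003 by limma with Benjamini-Hochberg), from 5.62 to 7.26 TPM in control to 9.41 to 28.5 TPM in cold, with no overlap. A row for the catalytic subunit KIN10 (TRINITY_DN26519_c0_g2) fell from 13 ± 4.61 to 6.43 ± 3.5 TPM (SD, n = 6; -0.96, SE 0.31; adjusted p = 0.047). The most abundant KIN10 row (TRINITY_DN24730_c0_g1), with means of 29 TPM (control) and 21.9 TPM (cold), was not called (-0.39, SE 0.15; adjusted p = 0.088).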

How the data were processed

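The deposited values are TPM per assembled gene, computed by the authors. No header names this unit, and it was taken from column totals and decimals. The submitters' processing notes list cutadapt, FastQC, Salmon and edgeR, seen here without roles or versions. Genes carry Trinity identifiers and Swiss-Prot hits, per the file headers. The lowest maximum of any gene is 6.01 TPM, so weaker genes are not in the table used here. Read depth is unknown.

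TPM plus 1 was put on a log2 scale. A gene was kept where 2 or more libraries reached 1 TPM (353 of 44953 were dropped). limma 3.58.1 (R 4.3.3) was fitted to the 44600 others as 6 groups with a variance trend, and p-values were adjusted over all of them by Benjamini-Hochberg, with calls at a false discovery rate of 0.05. Contrasts were the mean of the daily cold minus control differences, each day, F tests of unequal daily differences and F tests of change over days. Alternatives were another pseudocount, other filters and scalings, a replicate block, left-out libraries, single days, sums by hit and a 2-fold threshold. The code was tested on simulated data. Plotting used matplotlib 3.10.9 under python 3.11.15.

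Genes to be named were those of the 35 called for the mean or on any day and the most abundant of each step. In each neighbouring list they were the largest called rise and fall and the most abundant row. One such row is not reported here. Values of the remaining genes of the 35 are given besides. The genes, lists and libraries left out together were chosen with earlier results of these data known. No sequences were used here.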

Additional observations from a re-analysis of the deposited data

Results flagged for a closer look

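TPPH (TRINITY_DN17343_c0_g2), a trehalose-phosphate phosphatase gene of low level, had cold values above both controls on day 2, below both on day 4 and above both on day 6. Its log2 differences were 2.56, -1.51 and 0.60 on these days. It stood at 7.92 and 17.4 TPM in cold on day 2 against 2.94 and 0.19 TPM in control, at 0.21 and 0.83 TPM against 3.4 and 3.06 TPM on day 4, and at 1.05 and 1.78 TPM against 0.6 and 0.55 TPM on day 6. No single day was called (limma, Benjamini-Hochberg adjusted p = 0.071, 0.16 and 0.67), and the test of unequal differences gave an adjusted p of 0.32. TPPH was singled out for its opposite signs after its values were seen. It passed 6.01 TPM, the lowest gene maximum of the table, only in the cold libraries of day 2. It shares an assembly component with TPPB, and how reads were divided between them is unknown.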

How the results depend on the processing

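Of the 18 genes called for the mean, 13 were called in all 12 fits that left 1 library out, and 14 did so in every one of the other 7 settings of the whole table. The total was 13 to 20 without 1 library, with 10 to 14 higher and 3 to 7 lower, and 16 to 20 in the other 7 settings. None changed sign in any of these fits. Summed by Swiss-Prot hit, TPP4 turned to -0.14. Without 1 library the count was 0 to 7 on day 2, 0 to 9 on day 4, 0 to 1 on day 6 and 0 to 4 for change over days in cold. It was 0 for unequal daily differences and for change over days in control in every setting run. Fitted to the 4 libraries of a day alone, 0 genes were called on day 2, 2 on day 4 and 0 on day 6. With both outlying cold libraries (cold day 2 replicate 3, cold day 6 replicate 3) left out, 0 were called on day 2 and 0 for change over days in cold. With the replicate number as a block, 18 genes were called for the mean (13 higher, 5 lower), and the longer TPS1 row (TRINITY_DN14016_c0_g2) was no longer among them (-0.90, adjusted p = 0.062 by limma with Benjamini-Hochberg). In that fit 5 were called on day 2, 6 on day 4, 0 on day 6 and 0 for change over days in cold. Same-numbered libraries did not deviate together, with correlations of -0.19, 0.00743 and -0.01 on days 2, 4 and 6, so the numbers were not taken as pairs. Depth is unknown, so what it limits could not be given.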
